A study of Mus musculus with 12 samples.

Results

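The genes described here are 38 interferon-stimulated genes, chosen by name from a list of genes that interferons induce, and all 38 were found among the 25965 genes measured in each of the 12 libraries. The libraries hold RNA of mouse skin cells, sequenced to compare Egfr knockout with control cells in work on hair shaft differentiation. Cells came from 3 sources, written IFE, ORS and HFSC in the labels, with 2 control and 2 knockout libraries each. The cells of IFE and ORS were sorted, HFSC stands for hair follicle stem cells and ORS for outer root sheath. The labels pair the letters IFE with the inner root sheath, although IFE usually means interfollicular epidermis, so the letters are kept. All controls have the genotype EGFR_fl_fl, that is, floxed alleles. The IFE and ORS knockouts have the genotype EGFR_delta_ep, and the HFSC knockouts EGFR_delta_LGR5. The sources used here do not give the promoter that drove each deletion, the strain, the age or the number of animals. The names in the titles are E341 and E360 (IFE control), E358 and E359 (IFE knockout), E341 and E344 (ORS control), E358 and E359 (ORS knockout), L94 and L136 (HFSC control) and L95 and L97 (HFSC knockout). Pairs of values below follow this order. Whether replicate libraries are different animals is not labelled, and p-values then reflect only how far these libraries vary, which can be technical variation.

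Interferons are secreted proteins that cells release when receptors inside or on them sense foreign or misplaced nucleic acid. They bind receptors on the same and on neighbouring cells, and the kinases attached to those receptors activate STAT proteins, which enter the nucleus with IRF partners and switch on interferon-stimulated genes. The products of these genes sense RNA, block virus entry and replication, cut or sequester viral RNA, and raise antigen presentation. Keratinocytes hold low levels of many of these transcripts without infection, and skin inflammation raises them.

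Most of these genes are switched on through 2 kinds of short DNA element, and 3 promoters show them for members described below. The interferon-stimulated response element is bound by complexes of STAT and IRF proteins, and was searched as GAAA, any 2 bases and GAAA again. The gamma-activated site is bound by STAT dimers and was searched as TTCNNNGAA. Both strands were searched in RefSeq promoter windows of the GRCm38.p6 build, which run from 250 bases before to 50 bases after a gene's start. Sequences are given 5′ to 3′ on the gene's strand, with matches to either element in capitals. Ifitm3 (chr7:141010695-141010994, minus strand) holds 2 response elements and a gamma-activated site just past its start, of which the gamma-activated site and the second response element overlap. Isg15 (chr4:156200769-156201068, minus strand) holds 3 overlapping response elements. Irf1 (chr11:53769764-53770063, plus strand) holds 1 gamma-activated site.
Ifitm3: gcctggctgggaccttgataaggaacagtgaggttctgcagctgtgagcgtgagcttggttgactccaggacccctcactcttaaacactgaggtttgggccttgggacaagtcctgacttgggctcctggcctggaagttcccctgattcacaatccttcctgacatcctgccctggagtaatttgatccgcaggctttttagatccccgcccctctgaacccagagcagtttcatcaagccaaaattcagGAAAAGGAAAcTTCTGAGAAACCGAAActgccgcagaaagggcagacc
Isg15: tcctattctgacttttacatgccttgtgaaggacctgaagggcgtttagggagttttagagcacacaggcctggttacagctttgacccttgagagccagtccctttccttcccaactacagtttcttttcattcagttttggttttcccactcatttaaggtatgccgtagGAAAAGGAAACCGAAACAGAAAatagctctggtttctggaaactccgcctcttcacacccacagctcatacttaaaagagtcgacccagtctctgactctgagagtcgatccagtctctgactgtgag
Irf1: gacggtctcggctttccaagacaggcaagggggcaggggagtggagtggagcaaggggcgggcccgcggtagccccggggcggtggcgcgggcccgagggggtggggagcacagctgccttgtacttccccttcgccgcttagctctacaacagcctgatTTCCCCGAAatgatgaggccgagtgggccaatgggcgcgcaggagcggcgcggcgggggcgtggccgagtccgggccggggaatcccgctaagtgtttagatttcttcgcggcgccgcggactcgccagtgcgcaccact
Of the 30 members with a window, 15 (50%) held the response element, against 3.99% of the 27025 genes with a window. The gamma-activated site was in 8 of the 30 (26.7%), against 9.55% of all genes. Among members whose levels differed between compartments, Ifitm3, Isg15 and Ifih1 held the response element, whereas the windows of Cmpk2, Xaf1, Irf9 and Psmb9 held neither element. A match is a string of letters, not evidence of binding in these cells.

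Genes received 24.7 to 27.7 M reads in ORS libraries, 11.4 to 13.2 M in IFE libraries and 11.5 to 16.8 M in HFSC libraries, so counting error was smallest in ORS. Levels are given as CPM, reads per 1e6 of those in genes, with TMM scaling. Krt1, a keratin of upper epidermis, was at 698 to 1713 CPM in IFE and at most 37.7 CPM elsewhere, and the inner root sheath keratins Krt25 and Krt28 had no reads in IFE. Gata3, also listed for the inner root sheath, was at 864 to 1015 CPM in IFE. Cd34, a bulge stem cell marker, was at 1330 to 2143 CPM in HFSC, at most 5.87 CPM in ORS and 0 in IFE. Of the 6 HFSC genes listed, Krt15 and Lhx2 also had their highest mean in HFSC. The means of Lgr5 (396 CPM in ORS, 277 in HFSC), Nfatc1 (475 and 214) and Sox9 (2141 and 1804) were highest in ORS. Of the 5 ORS genes listed, Krt17 and Sox9 had their highest mean in ORS, Krt5 and Krt14 in IFE, and Krt75 in HFSC (92.8 CPM, 1.15 in ORS). Egfr was at 117 and 155 CPM in IFE controls and 0 and 0.321 in IFE knockouts. In ORS it was at 275 and 247 CPM in controls and at 3.70 and 55.0 in knockouts. In HFSC it was at 429 and 389.9 CPM in controls and still at 334 and 330.2 in the libraries labelled knockout, so HFSC directions refer to the labels. By Xist and Y-linked reads, the male libraries are IFE controls E341 and E360, ORS control E341 and HFSC L95 and L97, and the other 7 are female. Sex and genotype therefore cannot be told apart in IFE and HFSC. The leukocyte gene Ptprc had no reads in any library, and the leukocyte list summed to 43.2 to 77.2 CPM in HFSC, 21.6 to 47.4 in IFE and 15.7 to 25.99 in ORS. Replicates of every group differed by more than sampling (chi-square of 41.4 to 140.2 per degree of freedom), so none is a library deposited again.

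As a group the members were low in all 3 compartments and, relative to other genes, lowest in ORS, whereas on the deposited scale, without TMM, the median member was higher in ORS than in IFE by 0.35 (log2). The mean log2(CPM + 0.5) over the 38 members was 2.20 and 2.18 in the IFE control libraries and 1.94 and 2.25 in the IFE knockouts. In ORS it was 1.498 and 1.93 in controls and 1.51 and 1.28 in knockouts. In HFSC it was 2.42 and 1.96 in controls and 2.44 and 2.46 in the libraries labelled knockout. The 4 ORS libraries thus lay below the 4 IFE libraries and the 4 HFSC libraries, by a margin of only 1.93 against 1.94 at the closest pair, and IFE and HFSC overlapped. The control and knockout means differed by less than the spread of 1 of the 2 groups in IFE (2.19 ± 0.01 and 2.10 ± 0.23, SD, n = 2) and in HFSC (2.19 ± 0.33 and 2.45 ± 0.02), and in ORS they were 1.71 ± 0.30 and 1.39 ± 0.16. The mean over all genes tested did not follow this order, at 3.71 ± 0.09 in IFE, 3.87 ± 0.06 in ORS and 4.001 ± 0.03 in HFSC (SD, n = 4). The summed level of the members was 1155 ± 141 CPM in IFE, 811 ± 145 in ORS and 996 ± 124 in HFSC, and without the Ifitm genes it was 314 ± 41.5, 232 ± 46.5 and 509 ± 62.1 CPM. In these bulk libraries, fewer cells that make a transcript and less of it per cell cannot be told apart. ORS libraries also had the most reads in genes and the largest share of reads in genes, 50.6% to 54.6% against 26.9% to 29.6% elsewhere, and the part of that in the result was not tested.

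**Figure D1:**
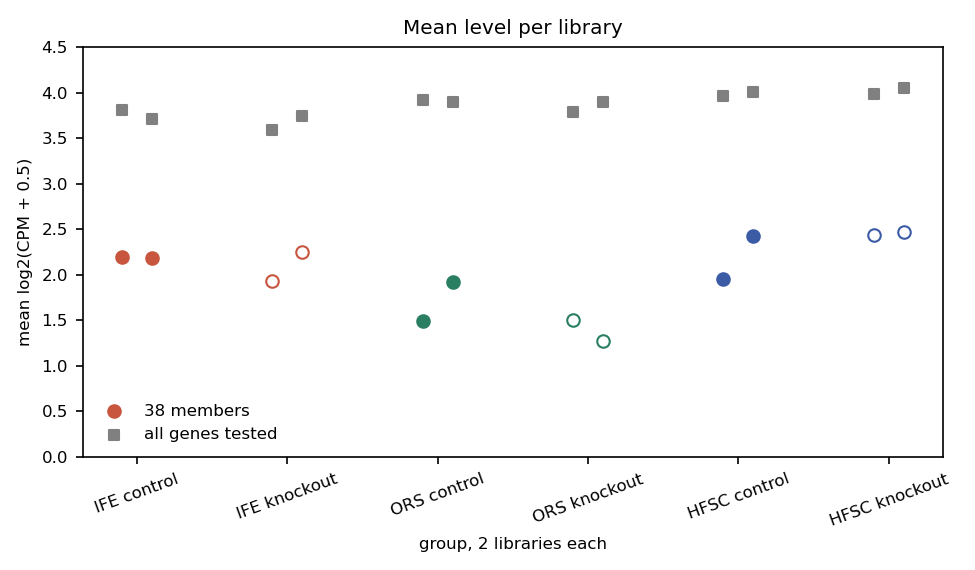
Mean log2(CPM + 0.5) of the 38 members (circles, filled for control and open for knockout) and of all genes tested (grey squares) in each of the 12 libraries, 2 per group. The ORS circles run from 1.28 to 1.93, below those of IFE (lowest 1.94) and HFSC (lowest 1.96), while the grey squares stay between 3.59 and 4.05. On the deposited scale, without TMM, the median member is higher in ORS than in IFE by 0.35.

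Few members were abundant. Scaled by the length of its exons, the median of the 38 members was at 1.55 CPM per kb, and that of the 33 tested between compartments at 2.27. The median of 13639 genes tested with a known length was at 5.31, and 8 of the 38 members lay above that gene. Ifitm2 (735 CPM per kb) and Ifitm3 (228 CPM per kb) were the highest members on this scale, followed by Ifi35 at 30.4 CPM per kb and Isg15 at 9.17 CPM per kb. About 34.9% of the 100-base stretches of Ifitm2 also occur in other genes, most of them in Gm45717, so its own level is uncertain. In all 12 libraries, 12 members had reads, and Oas2 and Oasl1 had none in any. With those 2, the members Ifit3, Oas3 and Rsad2 had too few reads to be tested between compartments, which left 33. Reads were uneven between replicates: 7 members had no read in one library and at least 5 CPM in the other library of some group. Irf1, Mx1, Gbp2 and Gbp3 did so in IFE controls, Irf1 and Oas1a in IFE knockouts, Ifit2 in ORS controls, and Ifit2 and Parp14 in ORS knockouts. In the same groups, 1.63%, 2.45%, 0.361% and 1.02% of all genes tested did so. Such pairs make the spread of these members wide.

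**Figure D2:**
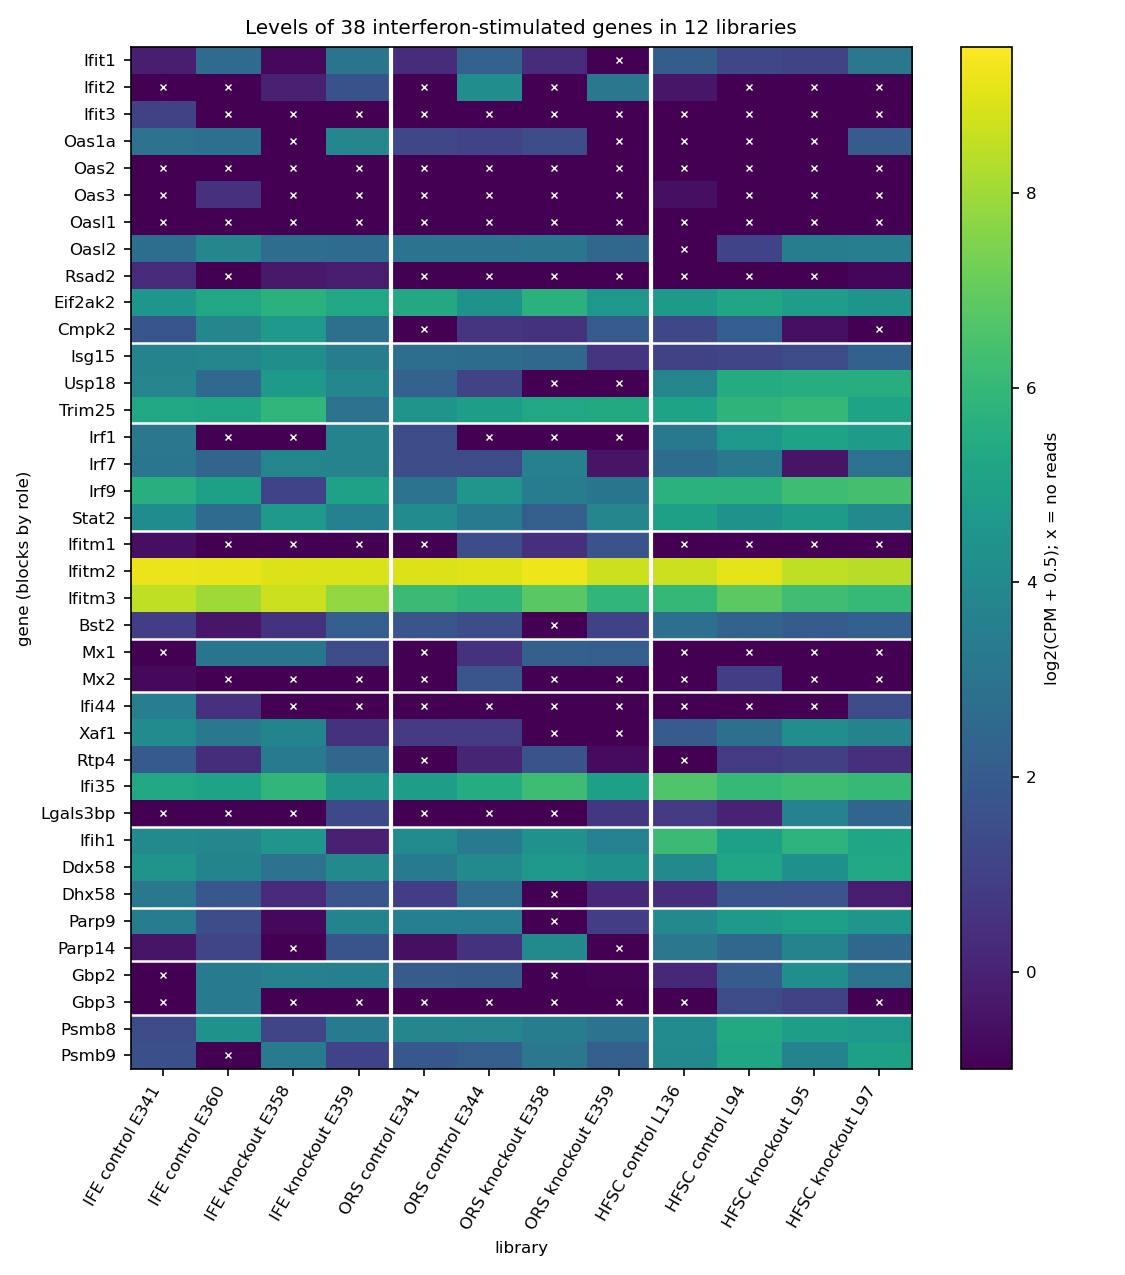
Levels of the 38 members (rows, in blocks by role) in the 12 libraries (columns), coloured by log2(CPM + 0.5), with a cross where a gene had no read. The Ifitm2 row runs from 329 to 606 CPM, the crosses fill the rows of Oas2 and Oasl1, and no group of libraries is bright or dark over all rows.

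Compartments were compared over both genotypes with limma, at an adjusted p under 0.05 over all 15251 genes tested. HFSC names start with L and those of IFE and ORS with E. All IFE titles also carry the tag FC7, and the ORS titles except that of E344 carry FC8. What these names and tags stand for is not labelled. Differences between compartments cannot be told apart from differences between the sets so named, or, for HFSC knockouts, from the other deletion. ORS against IFE called 4 of 33 members (12.1%), all lower in ORS: Ifitm3, Usp18, Xaf1 and Cmpk2. Of all genes, 19.4% were called (10.4% higher, 9% lower). HFSC against ORS called 8 of 33 members (24.2%), with Usp18, Xaf1, Irf1, Irf9, Lgals3bp, Parp9 and Psmb9 higher in HFSC and Ifitm1 lower, against 28.6% of all genes (14.4% higher, 14.2% lower). HFSC against IFE called 13 of 33 (39.4%), against 36% of all genes (19.7% higher, 16.3% lower). Of these, Psmb9, Psmb8, Irf1, Irf9, Ifih1, Parp9, Lgals3bp and Ifi35 were higher in HFSC, and Ifitm3, Isg15, Cmpk2, Mx1 and Ifitm2 lower. The share of members called was below that of all genes in the first 2 comparisons and slightly above it in the third, and these differences in share were not tested. The calls leaned one way in the first 2: 0 higher and 4 lower in ORS against IFE, and 7 higher and 1 lower in HFSC against ORS. The median log2 fold change of tested members was -0.42 in ORS against IFE (0.11 over all genes), 0.62 in HFSC against ORS (0.03) and 0.29 in HFSC against IFE (0.18). The libraries of the compartments did not overlap for 3 members in ORS against IFE (0 higher and 3 lower, against 10.9% and 9.57% of all genes). They did not overlap for 9 in HFSC against ORS (9 higher and 0 lower, against 16.9% and 17%) and for 8 in HFSC against IFE (6 higher and 2 lower, against 18.2% and 15.8%). On the deposited scale, per 1e6 of the library total without TMM, the median of all genes moved by 0.97 in ORS against IFE and by -0.94 in HFSC against ORS. The calls of members then split into 6 higher and 3 lower, and into 4 higher and 6 lower, and those of all genes went from 53.6% to 93.0% higher and from 50.2% to 14.1% higher. Directions below are thus relative to the typical gene, and the direction of the called members named below was the same on both scales. Differences given with a 95% interval are log2 fold changes.

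The sensors of viral RNA were present in every compartment, and Ifih1 was highest in HFSC. Ifih1 encodes a helicase that binds long double-stranded RNA. Ifih1 was at 14.8 and 13.9 CPM in IFE controls, 21.6 and 0.482 in IFE knockouts, 16.0 and 9.83 in ORS controls, 19.5 and 12.0004 in ORS knockouts, 30.2 and 70.8 in HFSC controls and 55.0 and 35.1 in HFSC libraries labelled knockout. All 4 HFSC libraries lay above all IFE and ORS libraries, and IFE knockout E359 lay far below its replicate. Ifih1 was higher in HFSC than in IFE (log2 fold change 2.45, SE 0.760, limma adjusted p = 0.0250). The call was lost in 6 of 15 alternatives, namely with no filter, with control libraries only and without each in turn of IFE control E341, IFE control E360, HFSC control L136 and HFSC labelled knockout L95. Against ORS the difference was 1.67 (95% interval 0.01 to 3.32, limma adjusted p = 0.125), which did not pass. Ddx58 encodes RIG-I, a sensor of short RNA with a triphosphate end. Ddx58 was at 21.3 and 12.8 CPM in IFE controls, 7.11 and 14.9 in IFE knockouts, 9.64 and 15.8 in ORS controls, 23.4 and 18.7 in ORS knockouts, 35.2 and 14.98 in HFSC controls and 18.7 and 37.9 in HFSC libraries labelled knockout. These ranges overlapped, and no compartment difference passed: ORS against IFE was 0.29 (95% interval -0.66 to 1.23, limma adjusted p = 0.704) and HFSC against IFE 0.89 (95% interval -0.05 to 1.84, limma adjusted p = 0.130). Dhx58, whose product regulates the other sensors, ranged from 0 to 8.81 CPM and passed no test. The span of Dhx58 from start to end, introns included, overlaps that of Gm11547 on the other strand by 2637 bases. Whether counting used strand is not given, so the reads of Dhx58 are uncertain.

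Among the transcription factors of the response, Irf1 and Irf9 were higher in HFSC. Irf1 is induced quickly by interferon-gamma and drives antigen presentation genes. Irf1 was at 8.39 and 0 CPM in IFE controls, 0 and 12.5 in IFE knockouts, 2.12 and 0 in ORS controls, 0 and 0 in ORS knockouts, 23.7 and 9.04 in HFSC controls and 33.3 and 27.3 in HFSC libraries labelled knockout. All HFSC libraries lay above all ORS libraries, of which 3 had no read, whereas IFE was split between 2 libraries without reads and 2 at 8.39 and 12.5 CPM. Irf1 was higher in HFSC than in ORS (log2 fold change 4.84, SE 1.10, limma adjusted p = 0.00604) and higher than in IFE (log2 fold change 3.22, SE 1.10, limma adjusted p = 0.0386). The first call was lost with control libraries only. The second was lost in 9 of 15 alternatives, namely on the deposited scale, with no filter, with control libraries only and without each in turn of IFE knockout E358, IFE control E360, HFSC control L136, HFSC control L94, HFSC labelled knockout L95 and HFSC labelled knockout L97. Irf9 is the DNA-binding partner of the STAT proteins. Irf9 was at 48.0 and 31.1 CPM in IFE controls, 1.68 and 32.0 in IFE knockouts, 7.52 and 21.8 in ORS controls, 10.5 and 7.98 in ORS knockouts, 53.8 and 52.0 in HFSC controls and 75.2 and 84.8 in HFSC libraries labelled knockout. Every HFSC library lay above every IFE and ORS library. Irf9 was higher in HFSC than in ORS (log2 fold change 2.53, SE 0.670, limma adjusted p = 0.0143) and than in IFE (log2 fold change 1.85, SE 0.670, limma adjusted p = 0.0484). The call against ORS was lost in 4 of 15 alternatives, namely on the deposited scale, with control libraries only and without each in turn of ORS control E341 and HFSC control L94. The call against IFE was lost in 10 of 15 alternatives, namely on the deposited scale, with no filter, with control libraries only and without each in turn of IFE control E341, IFE knockout E358, IFE control E360, HFSC control L136, HFSC control L94, HFSC labelled knockout L95 and HFSC labelled knockout L97. Stat2 completes the complex with Irf9. Stat2 was at 16.8 and 5.89 CPM in IFE controls, 24.4 and 11.8 in IFE knockouts, 16.4 and 9.57 in ORS controls, 4.07 and 13.1 in ORS knockouts, 19.8 and 30.4 in HFSC controls and 26.9 and 14.98 in HFSC libraries labelled knockout. Its compartments overlapped, with HFSC against ORS at 1.16 (95% interval 0.05 to 2.28, limma adjusted p = 0.111). Irf7, which amplifies the production of interferon-alpha, ranged from 0.226 to 13.6 CPM and passed no test. The span of Irf1, introns included, overlaps that of Gm17334 on the other strand by 907 bases. That of Irf9 overlaps Rnf31 on the same strand by 123 bases, and that of Irf7 overlaps Phrf1 on the other strand by 45.

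The Isg15 system showed different orders of compartments for its members. Isg15 is a ubiquitin-like protein that is attached to other proteins after interferon. Isg15 was at 12.4 and 13.6 CPM in IFE controls, 18.2 and 10.4 in IFE knockouts, 6.43 and 5.99 in ORS controls, 5.29 and 1.05 in ORS knockouts, 1.77 and 1.60 in HFSC controls and 2.14 and 4.24 in HFSC libraries labelled knockout. All IFE libraries lay above all ORS and HFSC libraries, and ORS and HFSC overlapped. Isg15 was lower in HFSC than in IFE (log2 fold change -2.32, SE 0.548, limma adjusted p = 0.00591), a 5.60-fold difference of mean CPM, and the call held in all 15 alternatives. ORS against IFE was -1.63 (95% interval -2.83 to -0.44, limma adjusted p = 0.0569) and did not pass. Usp18 is the protease that removes this tag and also dampens signalling at the receptor of type I interferon. Usp18 was at 13.2 and 5.44 CPM in IFE controls, 24.1 and 14.1 in IFE knockouts, 4.45 and 1.73 in ORS controls, 0 and 0 in ORS knockouts, 43.5 and 13.2 in HFSC controls and 46.6 and 45.7 in HFSC libraries labelled knockout. ORS libraries lay below all others, with no read in either ORS knockout, while IFE and HFSC overlapped. Usp18 was lower in ORS than in IFE (log2 fold change -3.34, SE 0.541, limma adjusted p = 0.00110) and higher in HFSC than in ORS (log2 fold change 4.72, SE 0.541, limma adjusted p = 5.62e-05). Mean CPM differed 9.21-fold and 24.1-fold. The call against IFE was lost with control libraries only, and that of HFSC against ORS held in all 15 alternatives. HFSC against IFE was 1.37 (95% interval 0.19 to 2.55, limma adjusted p = 0.0673). Trim25 is a ubiquitin ligase that activates RIG-I. Trim25 was at 38.8 and 36.2 CPM in IFE controls, 58.8 and 6.98 in IFE knockouts, 21.1 and 29.4 in ORS controls, 37.7 and 41.0 in ORS knockouts, 55.8 and 33.7 in HFSC controls and 64.1 and 34.0 in HFSC libraries labelled knockout. Apart from IFE knockout E359 the libraries lay between 21.1 and 64.1 CPM, and no difference passed.

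The interferon-induced membrane proteins were the most abundant members, and Ifitm3 set IFE apart. Ifitm3 blocks fusion of viruses in endosomes. Ifitm3 was at 358.5 and 257 CPM in IFE controls, 403 and 222 in IFE knockouts, 71.0 and 58.6 in ORS controls, 111 and 59.5 in ORS knockouts, 114 and 62.4 in HFSC controls and 76.4 and 64.5 in HFSC libraries labelled knockout. Every IFE library lay above every ORS and HFSC library, with means of 310.3 ± 84.8, 74.9 ± 24.5 and 79.3 ± 23.9 CPM (SD, n = 4). A list of 6 fibroblast genes was also highest in IFE, with a summed level of 177 to 301 CPM against 76.0 to 122 in ORS and 30.1 to 82.9 in HFSC. Most of the IFE sum was Dcn, a matrix proteoglycan, with 127 to 281 CPM in IFE against 38.5 to 51.1 in ORS and at most 10.7 in HFSC, whereas Col1a1 was at most 0.339 CPM in IFE and Col3a1 had no read there. The part of such cells in the levels of Ifitm3, and of Isg15 and Cmpk2, whose mean levels were also highest in IFE, was not tested. Ifitm3 was lower in ORS than in IFE (log2 fold change -2.05, SE 0.274, limma adjusted p = 0.000272) and lower in HFSC than in IFE (log2 fold change -1.96, SE 0.274, limma adjusted p = 0.000159). Both calls held in every alternative tried, 17 and 15. HFSC against ORS was 0.09 (95% interval -0.51 to 0.69, limma adjusted p = 0.852). Ifitm2, a neighbour of Ifitm3 on chromosome 7 with a related role, did not share this pattern. Ifitm2 was at 584 and 572 CPM in IFE controls, 494 and 475 in IFE knockouts, 497 and 501 in ORS controls, 606 and 414 in ORS knockouts, 534 and 402 in HFSC controls and 365 and 329 in HFSC libraries labelled knockout. Ifitm2 was lower in HFSC than in IFE (log2 fold change -0.40, SE 0.140, limma adjusted p = 0.0423), although the libraries overlapped. The call was lost in 11 of 15 alternatives, namely with median-of-ratios size factors, with no filter, with limma-voom, with control libraries only and without each in turn of IFE control E341, IFE knockout E358, IFE knockout E359, IFE control E360, HFSC control L136, HFSC labelled knockout L95 and HFSC labelled knockout L97. Ifitm1, which acts at the cell surface, was nearly absent. Ifitm1 was at 0.169 and 0 CPM in IFE controls, 0 and 0 in IFE knockouts, 0 and 2.31 in ORS controls, 0.850 and 2.75 in ORS knockouts, 0 and 0 in HFSC controls and 0 and 0 in HFSC libraries labelled knockout. Reads were seen in 3 ORS libraries and 1 IFE library. Ifitm1 was lower in HFSC than in ORS (log2 fold change -1.66, limma adjusted p = 0.0497). Its ORS mean of 1.48 ± 1.27 CPM (SD, n = 4) was 7.08 times a floor of 3 reads per HFSC library. The call was lost in 10 of 14 alternatives, namely with median-of-ratios size factors, with a pseudocount of 2 CPM, with limma-voom, with control libraries only and without each in turn of ORS control E344, ORS knockout E359, HFSC control L136, HFSC control L94, HFSC labelled knockout L95 and HFSC labelled knockout L97. Bst2, which tethers budding viruses to the cell, ranged from 0 to 6.65 CPM, with HFSC against ORS at 1.54 (95% interval 0.14 to 2.95, limma adjusted p = 0.0953).

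Of the effectors that act on RNA and nucleotides, Cmpk2 was higher in IFE than elsewhere. Cmpk2 is a nucleotide kinase of mitochondria. Cmpk2 was at 3.05 and 14.001 CPM in IFE controls, 24.6 and 6.82 in IFE knockouts, 0 and 0.999 in ORS controls, 0.961 and 3.65 in ORS knockouts, 3.87 and 1.86 in HFSC controls and 0.183 and 0 in HFSC libraries labelled knockout. IFE control E341 at 3.05 CPM lay within the range of ORS and HFSC, and the other 3 IFE libraries lay above it. Cmpk2 was lower in ORS than in IFE (log2 fold change -2.76, SE 0.710, limma adjusted p = 0.0179) and lower in HFSC than in IFE (log2 fold change -2.85, SE 0.710, limma adjusted p = 0.00807). The call in ORS was lost in 7 of 17 alternatives, namely on the deposited scale, with the replicate block, with control libraries only and without each in turn of ORS control E341, IFE knockout E358, ORS knockout E358 and IFE control E360. That in HFSC was lost only with control libraries only. Eif2ak2 encodes PKR, a kinase that stops translation when it binds double-stranded RNA. Eif2ak2 was at 22.1 and 38.6 CPM in IFE controls, 52.4 and 39.0 in IFE knockouts, 40.4 and 20.8 in ORS controls, 52.1 and 24.001 in ORS knockouts, 36.1 and 26.2 in HFSC controls and 28.1 and 21.1 in HFSC libraries labelled knockout. Its compartments overlapped, and HFSC against IFE was -0.40 (95% interval -1.17 to 0.36, limma adjusted p = 0.402). Oasl2 belongs to the oligoadenylate synthetase family, which senses double-stranded RNA. Oasl2 was at 6.35 and 13.9 CPM in IFE controls, 6.23 and 5.94 in IFE knockouts, 7.48 and 7.61 in ORS controls, 8.32 and 5.38 in ORS knockouts, 1.64 and 0 in HFSC controls and 10.6 and 10.9 in HFSC libraries labelled knockout. Apart from the HFSC controls, all libraries lay between 5.38 and 13.9 CPM, and no compartment difference passed. Oas1a, a synthetase proper, reached 14.05 CPM, with HFSC against IFE at -2.39 (95% interval -4.60 to -0.19, limma adjusted p = 0.0856); it shares 40.9% of its 100-base stretches with Oas1g and other genes. The RNA-binding Ifit1 reached 8.36 CPM and Ifit2 17.1 CPM without a difference that passed. Ifit3 had 19 reads in all, Rsad2 18 and Oas3 12.

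The dynamin-like and guanylate-binding GTPases were low. Mx1 traps viral nucleoproteins. Mx1 was at 0 and 7.94 CPM in IFE controls, 8.06 and 2.17 in IFE knockouts, 0 and 0.922 in ORS controls, 4.18 and 3.95 in ORS knockouts, 0 and 0 in HFSC controls and 0 and 0 in HFSC libraries labelled knockout. No HFSC library had a read, and 1 IFE and 1 ORS library had none either. Mx1 was lower in HFSC than in IFE (log2 fold change -2.65, limma adjusted p = 0.0237). Its IFE mean of 4.54 ± 4.09 CPM (SD, n = 4) was 21.8 times a floor of 3 reads per HFSC library. The call was lost in 7 of 15 alternatives, namely with control libraries only and without each in turn of IFE knockout E358, IFE control E360, HFSC control L136, HFSC control L94, HFSC labelled knockout L95 and HFSC labelled knockout L97. Mx2 was read in 3 libraries, at up to 2.88 CPM. Gbp2 is induced by interferon-gamma and attacks the vacuoles of intracellular parasites. Gbp2 was at 0 and 9.27 CPM in IFE controls, 11.7 and 11.2 in IFE knockouts, 3.57 and 3.38 in ORS controls, 0 and 0.0376 in ORS knockouts, 3.67 and 0.621 in HFSC controls and 18.2 and 6.99 in HFSC libraries labelled knockout. Its compartments overlapped and none of their differences passed, with ORS against IFE at -1.84 (95% interval -3.69 to 0.02, limma adjusted p = 0.159). Gbp3 was read in 3 libraries, at 9.19, 2.16 and 1.59 CPM.

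Of the 2 ADP-ribosyltransferases, Parp9 was called higher in HFSC and Parp14 was not. Parp9 acts with the ubiquitin ligase Dtx3l in the interferon response. Parp9 was at 10.2 and 2.41 CPM in IFE controls, 0.0798 and 12.9 in IFE knockouts, 11.0 and 10.6 in ORS controls, 0 and 1.39 in ORS knockouts, 25.0 and 14.98 in HFSC controls and 30.3 and 22.5 in HFSC libraries labelled knockout. All HFSC libraries lay above all others. Parp9 was higher in HFSC than in ORS (log2 fold change 2.79, SE 0.883, limma adjusted p = 0.0333) and than in IFE (log2 fold change 2.54, SE 0.883, limma adjusted p = 0.0411). The call against ORS was lost in 10 of 15 alternatives, namely on the deposited scale, with no filter, with control libraries only and without each in turn of ORS control E341, ORS control E344, ORS knockout E358, HFSC control L136, HFSC control L94, HFSC labelled knockout L95 and HFSC labelled knockout L97. The call against IFE was lost in 9 of 15 alternatives, namely on the deposited scale, with no filter, with control libraries only and without each in turn of IFE knockout E358, IFE control E360, HFSC control L136, HFSC control L94, HFSC labelled knockout L95 and HFSC labelled knockout L97. The span of Parp9, introns included, overlaps that of Gm15564 by 5854 bases and that of Dtx3l by 682. Both lie on the other strand, so part of the reads counted for Parp9 may belong to them. Parp14 ranged from 0 to 15.6 CPM, with HFSC against IFE at 2.61 (95% interval 0.39 to 4.82, limma adjusted p = 0.0647).

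The immunoproteasome subunits were highest in HFSC. Psmb8 and Psmb9 replace standard catalytic subunits of the proteasome and change the peptides offered on MHC class I. Psmb9 was at 2.46 and 0 CPM in IFE controls, 9.90 and 1.69 in IFE knockouts, 3.11 and 4.07 in ORS controls, 8.36 and 4.06 in ORS knockouts, 36.6 and 15.2 in HFSC controls and 12.9 and 30.5 in HFSC libraries labelled knockout. All HFSC libraries lay above all IFE and ORS libraries. Psmb9 was higher in HFSC than in IFE (log2 fold change 3.20, SE 0.717, limma adjusted p = 0.00431), a 6.77-fold difference of mean CPM, and the call held in all 15 alternatives. It was higher than in ORS (log2 fold change 2.12, SE 0.717, limma adjusted p = 0.0437). That call was lost in 11 of 15 alternatives, namely on the deposited scale, with no filter, with control libraries only and without each in turn of ORS control E341, ORS control E344, ORS knockout E358, ORS knockout E359, HFSC control L136, HFSC control L94, HFSC labelled knockout L95 and HFSC labelled knockout L97. Psmb8 was at 2.12 and 19.7 CPM in IFE controls, 1.76 and 9.23 in IFE knockouts, 14.2 and 13.4 in ORS controls, 10.4 and 7.49 in ORS knockouts, 41.0 and 16.0 in HFSC controls and 28.2 and 23.6 in HFSC libraries labelled knockout. HFSC lay above ORS in every library, but IFE control E360 at 19.7 CPM lay within the HFSC range. Psmb8 was higher in HFSC than in IFE (log2 fold change 2.17, SE 0.668, limma adjusted p = 0.0244). The call was lost in 6 of 15 alternatives, namely with control libraries only and without each in turn of IFE control E341, IFE knockout E358, HFSC control L94, HFSC labelled knockout L95 and HFSC labelled knockout L97. HFSC against ORS was 1.19 (95% interval -0.27 to 2.64, limma adjusted p = 0.213). Cd74, a gene of antigen-presenting cells, was also highest in HFSC, at 18.6 to 45.1 CPM against at most 8.03 in IFE and at most 2.01 in ORS. Of the other leukocyte genes with reads, Cd68, H2-Ab1 and Itgam had their highest mean in IFE, and the rest had it in HFSC. The macrophage gene Cd68 ranged from 4.58 to 14.8 CPM in IFE, with ORS at 1.34 to 5.69 CPM and HFSC at 1.33 to 7.15 CPM. The MHC class II gene H2-Ab1 was at no more than 9.90, 6.54 and 9.58 CPM in these compartments. In the same order, Itgam was at no more than 3.81, 0.0376 and 1.33 CPM. Csf1r, with overlapping ranges of 3.57 to 22.7, 10.3 to 14.7 and 11.2 to 27.3 CPM, had its highest mean in HFSC, like Cd74. H2-Aa had no read in IFE and at most 0.177 CPM in ORS, but reached 5.12 CPM in HFSC. Reads of Cd3e, Cd3d and Lyz2 were seen only in HFSC, at no more than 0.262, 0.550 and 1.62 CPM. Of the 14 leukocyte genes found among the 16 listed, 5 had no reads in HFSC (Ptprc, Cd207, Cd8a, Itgax and Siglech), 9 none in IFE and 8 none in ORS. The part of such cells in these levels was not tested. The span of Psmb9, introns included, overlaps that of Tap1 by 212 bases, and that of Psmb8 overlaps Gm20496 by 2140, each on the other strand.

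Of the remaining members, Xaf1 was lowest in ORS and Lgals3bp and Ifi35 were higher in HFSC. Xaf1 promotes apoptosis by binding an inhibitor of caspases. Xaf1 was at 16.3 and 9.01 CPM in IFE controls, 13.0 and 0.963 in IFE knockouts, 1.17 and 1.23 in ORS controls, 0 and 0 in ORS knockouts, 6.82 and 3.64 in HFSC controls and 17.2 and 12.5 in HFSC libraries labelled knockout. HFSC libraries lay above all ORS libraries, 2 of which had no read, and IFE knockout E359 at 0.963 CPM was the only IFE library within the ORS range. Xaf1 was lower in ORS than in IFE (log2 fold change -3.02, SE 0.683, limma adjusted p = 0.00883) and higher in HFSC than in ORS (log2 fold change 3.31, SE 0.683, limma adjusted p = 0.00327). The first call was lost with the replicate block and with control libraries only, the second with control libraries only. Lgals3bp is a secreted glycoprotein that binds galectins. Lgals3bp was at 0 and 0 CPM in IFE controls, 0 and 2.01 in IFE knockouts, 0 and 0 in ORS controls, 0 and 1.13 in ORS knockouts, 0.525 and 1.24 in HFSC controls and 12.1 and 4.81 in HFSC libraries labelled knockout. The HFSC libraries labelled knockout were high and the HFSC controls overlapped the other compartments. Lgals3bp was higher in HFSC than in ORS (log2 fold change 2.30, SE 0.640, limma adjusted p = 0.0183) and than in IFE (log2 fold change 2.14, SE 0.640, limma adjusted p = 0.0210). The call against ORS was lost in 6 of 15 alternatives, namely with control libraries only and without each in turn of ORS control E341, ORS control E344, ORS knockout E358, HFSC control L136 and HFSC labelled knockout L95. The call against IFE was lost in 6 of 15 alternatives, namely on the deposited scale, with control libraries only and without each in turn of IFE knockout E358, IFE control E360, HFSC control L136 and HFSC labelled knockout L95. Ifi35 is a leucine zipper protein induced by interferon. The span of its gene, introns included, overlaps that of Gm11626 on the other strand by 815 bases. Ifi35 was at 37.2 and 33.9 CPM in IFE controls, 59.0 and 21.0 in IFE knockouts, 29.1 and 44.5 in ORS controls, 74.2 and 29.6 in ORS knockouts, 65.3 and 96.7 in HFSC controls and 75.7 and 64.2 in HFSC libraries labelled knockout. Every HFSC library lay above every IFE library, and ORS overlapped both. Ifi35 was higher in HFSC than in IFE (log2 fold change 1.06, SE 0.370, limma adjusted p = 0.0413). The call was lost in 11 of 15 alternatives, namely on the deposited scale, with no filter, with limma-voom, with control libraries only and without each in turn of IFE control E341, IFE knockout E359, IFE control E360, HFSC control L136, HFSC control L94, HFSC labelled knockout L95 and HFSC labelled knockout L97. Rtp4 ranged from 0 to 9.18 CPM, with ORS against IFE at -2.01 (95% interval -3.55 to -0.47, limma adjusted p = 0.0677), and Ifi44 was read in 3 libraries.

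**Figure D3:**
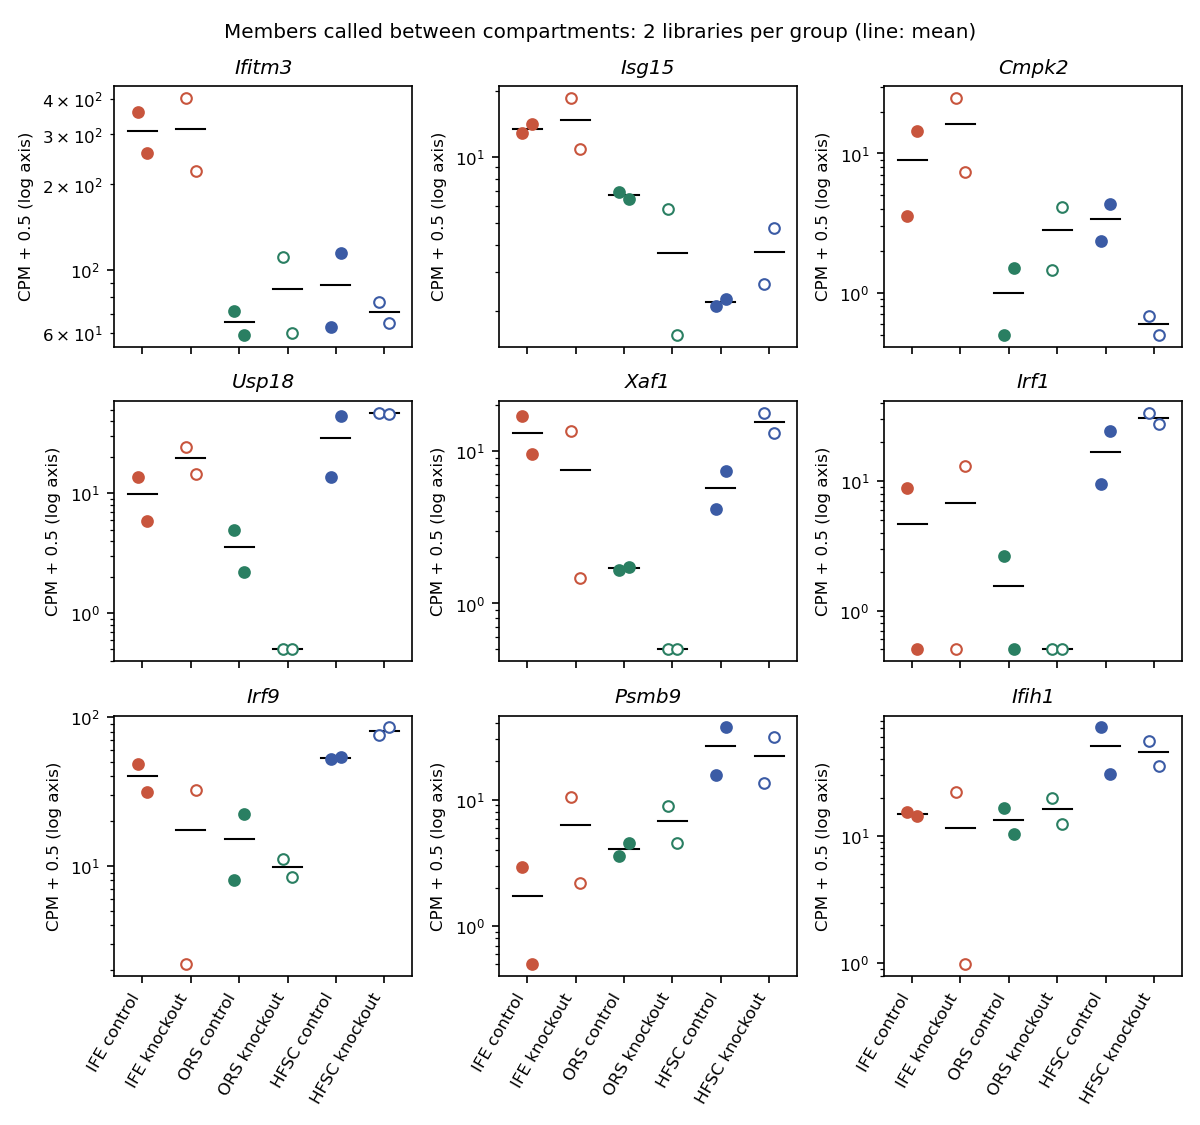
CPM + 0.5 on a log axis for 9 members called between compartments, with 2 libraries per group (filled circles control, open circles knockout) and a line at the mean. Ifitm3 and Isg15 are highest in IFE, Usp18 and Xaf1 lowest in ORS, and Irf9, Psmb9 and Ifih1 highest in HFSC. Open and filled circles are mixed in every compartment for Ifitm3, Psmb9 and Ifih1, and separate in some compartment for the others. No member was called between genotypes.

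Knockout against control called no member in any compartment. Adjusted p-values were under 0.05 for 0 of 31 tested members in IFE and 0 of 31 in ORS, where 0% of 14449 genes were called, and for 0 of 27 in HFSC, where 0.0363% of 13778 genes were called. The weighted fit of limma-voom also called 0 members in each. At an unadjusted p under 0.05 there were 1 member in IFE (7.54% of all genes), 3 in ORS (3.38%) and 6 in HFSC (7.58%). The libraries of the genotypes did not overlap for 10 members in IFE (6 higher and 4 lower in knockouts, against 13.8% and 17% of all genes). They did not overlap for 12 in ORS (3 higher and 9 lower, against 14.6% and 16.8%) and for 11 in HFSC (8 higher and 3 lower, against 19.7% and 18.3%). The median log2 fold change of members was -0.02 in IFE, 0.00 in ORS and 0.11 in HFSC, against -0.03, -0.03 and 0.00 over all genes. With 2 libraries a side the intervals were wide. For Ifitm3 the knockout effect was -0.02 (95% interval -0.84 to 0.80, limma adjusted p = 1) in IFE, 0.33 (95% interval -0.50 to 1.15, limma adjusted p = 1) in ORS and -0.26 (95% interval -0.99 to 0.47, limma adjusted p = 0.890) in HFSC.

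In IFE the lowest unadjusted p belonged to Ifi44, an interferon-induced gene of little-known function. Ifi44 was at 10.8 and 0.892 CPM in IFE controls, 0 and 0 in IFE knockouts, 0 and 0 in ORS controls, 0 and 0 in ORS knockouts, 0 and 0 in HFSC controls and 0 and 2.18 in HFSC libraries labelled knockout. Of its 172 reads in all libraries, 127 were in IFE control E341, 10 in IFE control E360 and 35 in HFSC L97, and neither IFE knockout had one. The log2 fold change was -2.98 (SE 1.01, limma unadjusted p = 0.0141, adjusted p = 0.527), and the control mean was 24.3 times a floor of 3 reads per library. Gbp2 and Irf9 had the next largest fold changes, at 2.43 (SE 1.27, limma unadjusted p = 0.0846, adjusted p = 0.730) and -2.22 (SE 1.09, limma unadjusted p = 0.0680, adjusted p = 0.709). For Gbp2, IFE control E341 had no read and E360 was at 9.27 CPM, close to the knockouts. For Irf9, knockout E358 was at 1.68 CPM and E359 at 32.0 CPM, within the range of the controls.

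In ORS, Usp18 had no read in either knockout library and 4.45 and 1.73 CPM in the controls, whose mean was 27.6 times the same floor. Its log2 fold change was -2.73 (SE 0.917, limma unadjusted p = 0.0134, adjusted p = 1). Parp9 was at 11.0 and 10.6 CPM in controls and 0 and 1.39 in knockouts, a log2 fold change of -3.54 (SE 1.43, limma unadjusted p = 0.0322, adjusted p = 1). Gbp2 was at 3.57 and 3.38 CPM in controls and 0 and 0.0376 in knockouts, a log2 fold change of -2.94 (SE 1.27, limma unadjusted p = 0.0430, adjusted p = 1). In all 3 the knockouts lay below the controls, and none passed. ORS knockout E359, which kept 55.0 CPM of Egfr, was as low as E358 for Usp18 and Gbp2. Without E359 none of the 3 passed either.

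In HFSC, Oasl2 had the lowest p, with 1.64 and 0 CPM in controls and 10.6 and 10.9 in libraries labelled knockout. Its log2 fold change was 3.44 (SE 0.864, limma unadjusted p = 0.00495, adjusted p = 0.443). Lgals3bp (0.525 and 1.24 CPM against 12.1 and 4.81), Gbp2 (3.67 and 0.621 against 18.2 and 6.99), Xaf1 (6.82 and 3.64 against 17.2 and 12.5) and Irf9 (53.8 and 52.0 against 75.2 and 84.8) were likewise higher in both libraries labelled knockout. Their log2 fold changes were 2.61, 2.45, 1.47 and 0.59, with limma adjusted p of 0.520, 0.567, 0.586 and 0.594. Cmpk2 went the other way, from 3.87 and 1.86 CPM in controls to 0.183 and 0, a log2 fold change of -2.46 (SE 0.860, limma unadjusted p = 0.0233, adjusted p = 0.574). These libraries kept most of their Egfr transcript, at 334 and 330.2 CPM against 429 and 389.9, and they are male where the controls are female.

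**Figure D4:**
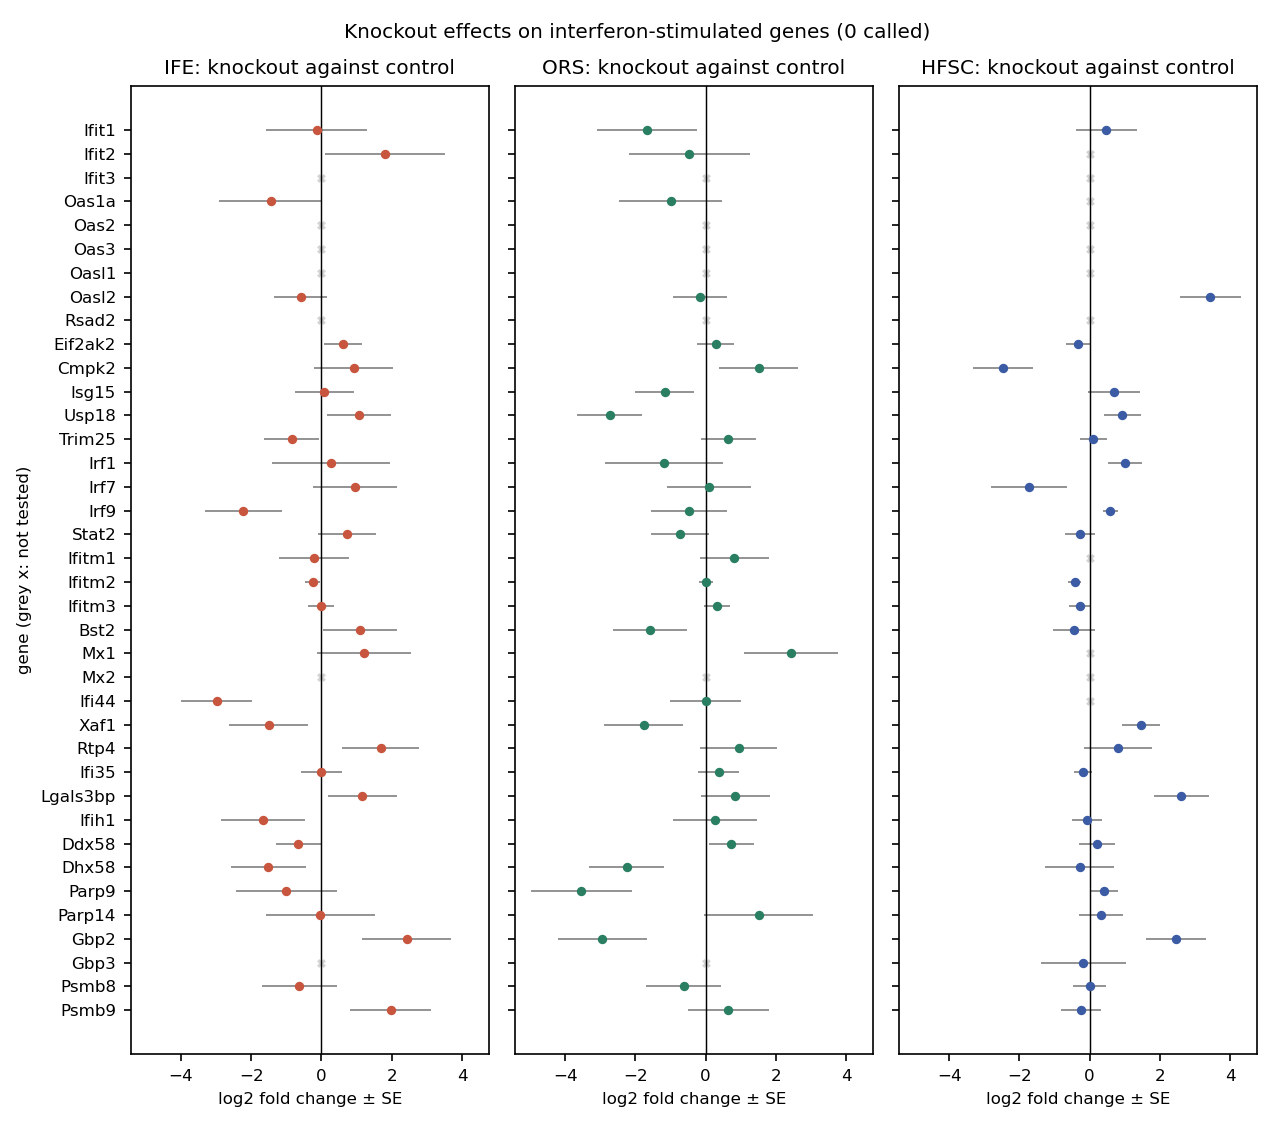
Log2 fold change of knockout against control for each member in IFE, ORS and HFSC (points, with bars of 1 standard error from limma), with a grey cross for members not tested. No member passed the test, and the points lie on both sides of 0 in each panel, with medians of -0.02, 0.00 and 0.11.

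The knockout effects of IFE and ORS were compared in the same fit. Of 31 members, 0 had an effect that differed at an adjusted p under 0.05, as did 0% of all genes, and 2 did so at an unadjusted p under 0.05 (4.78% of all genes). These were Gbp2, with an ORS minus IFE difference of -5.37 (SE 1.80, limma unadjusted p = 0.0133, adjusted p = 0.999), and Usp18, with -3.80 (SE 1.30, limma unadjusted p = 0.0145, adjusted p = 0.999). Both were higher in IFE knockouts and lower in ORS knockouts in every library than in the controls. Ifi44, with the third largest difference, was at 2.98 (SE 1.43, limma unadjusted p = 0.0630, adjusted p = 0.999).

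The rest of the pathway was followed in a list of 83 genes, of which 82 were found. Directions of these genes, here and below, are relative to the typical gene, and single genes were not checked on the deposited scale. There the median of all genes moved by 0.97 in ORS against IFE and by -0.94 in HFSC against ORS. Fold changes of about that size or less can thus differ in direction on that scale. The interferon genes themselves were silent or close to it: of 11 listed, 9 had no read in any library, Ifnz had 1 read, and Ifnk, an interferon of keratinocytes, had 57 reads in all and at most 2.08 CPM. The receptor subunits were present. Ifnar1, a subunit of the type I receptor, was at 34.3 ± 5.91 CPM in IFE, 37.98 ± 9.45 in ORS and 44.5 ± 7.15 in HFSC (SD, n = 4), with no difference that passed. Ifngr1, the ligand-binding subunit of the interferon-gamma receptor, differed. Ifngr1 was at 63.4 and 54.3 CPM in IFE controls, 57.5 and 52.3 in IFE knockouts, 12.4 and 20.9 in ORS controls, 2.51 and 6.21 in ORS knockouts, 49.6 and 94.6 in HFSC controls and 78.0 and 62.2 in HFSC libraries labelled knockout. Every ORS library lay below every other. Ifngr1 was lower in ORS than in IFE (log2 fold change -2.73, SE 0.339, limma adjusted p = 0.000163) and higher in HFSC than in ORS (log2 fold change 3.01, SE 0.339, limma adjusted p = 4.93e-05). Ifngr2, its partner, was higher in HFSC than in ORS (log2 fold change 1.08, SE 0.335, limma adjusted p = 0.0304) and than in IFE (log2 fold change 0.95, SE 0.335, limma adjusted p = 0.0438). Among the kinases and factors, the receptor-bound kinase Jak2 was higher in ORS than in IFE (log2 fold change 1.01, SE 0.317, limma adjusted p = 0.0437) and higher in HFSC than in IFE (log2 fold change 0.96, SE 0.317, limma adjusted p = 0.0325), and Irf3, which induces interferon genes, was higher in HFSC than in ORS (log2 fold change 0.85, SE 0.232, limma adjusted p = 0.0168). Among negative regulators, Socs3, which blocks the kinases, was higher in ORS than in IFE (log2 fold change 1.93, SE 0.490, limma adjusted p = 0.0170) and higher in HFSC than in IFE (log2 fold change 3.04, SE 0.490, limma adjusted p = 0.000464).

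Of 30 other interferon-responsive genes tested, ORS against IFE called 10 lower and 1 higher, HFSC against ORS 15 higher and 1 lower, and HFSC against IFE 8 higher and 7 lower. In this order 36.7%, 53.3% and 50% of the list were called, against 19.4%, 28.6% and 36% of all genes. These differences in share were not tested, and the list was chosen with earlier results of these data known. On the deposited scale the counts were 4 lower and 4 higher, 7 higher and 7 lower, and 7 higher and 7 lower. Without each library in turn, ORS against IFE called 7 to 10 lower and HFSC against ORS 4 to 13 higher. The second count fell to 10 without HFSC control L136, to 9 without ORS control E344 or ORS knockout E358, to 7 without HFSC L97, to 6 without ORS control E341 or HFSC L95, and to 4 without HFSC control L94. Cxcl10, a chemokine that draws T cells, had no read in any ORS library. Cxcl10 was at 6.86 and 20.7 CPM in IFE controls, 33.1 and 30.1 in IFE knockouts, 0 and 0 in ORS controls, 0 and 0 in ORS knockouts, 0.722 and 0 in HFSC controls and 3.91 and 7.12 in HFSC libraries labelled knockout. It was lower in ORS than in IFE (limma adjusted p = 5.32e-05), and its IFE mean was 204 times a floor of 3 reads per ORS library. It was also lower in HFSC than in IFE (log2 fold change -3.23, SE 0.571, limma adjusted p = 0.000892). Lgals9, a galectin, was likewise highest in IFE, at 297 ± 66.3 CPM against 43.8 ± 22.2 in ORS and 26.7 ± 10.1 in HFSC (SD, n = 4). Lgals9 was lower in ORS than in IFE (log2 fold change -2.87, SE 0.315, limma adjusted p = 6.35e-05) and in HFSC than in IFE (log2 fold change -3.52, SE 0.315, limma adjusted p = 6.17e-06).

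Genes of antigen processing did not share 1 order. Tap1, a peptide transporter, was at 14.4 ± 5.90 CPM in IFE, 40.8 ± 13.7 in ORS and 75.0 ± 15.2 in HFSC (SD, n = 4). Tap1 was higher in ORS than in IFE (log2 fold change 1.51, SE 0.297, limma adjusted p = 0.00403) and higher in HFSC than in ORS (log2 fold change 0.91, SE 0.297, limma adjusted p = 0.0380). Tapbp, which loads peptides, was lower in ORS than in IFE (log2 fold change -1.23, SE 0.244, limma adjusted p = 0.00411) and higher in HFSC than in ORS (log2 fold change 2.31, SE 0.244, limma adjusted p = 3.17e-05). The proteasome activators Psme1 and Psme2 were highest in IFE, with ORS against IFE log2 fold changes of -1.02 (SE 0.183, limma adjusted p = 0.00228) and -1.51 (SE 0.270, limma adjusted p = 0.00214). The immunity-related GTPases Irgm2 and Igtp were higher in HFSC than in ORS, with log2 fold changes of 3.22 (SE 0.879, limma adjusted p = 0.0166) and 3.39 (SE 0.854, limma adjusted p = 0.0108). None of the 82 genes was called for knockout against control. The lowest unadjusted limma p in each compartment were those of Tmem173, Ifngr1 and Socs3. Tmem173 had a log2 fold change of -3.13 (SE 1.17, limma unadjusted p = 0.0228, adjusted p = 0.577) in IFE, Ifngr1 one of -1.88 (SE 0.558, limma unadjusted p = 0.00677, adjusted p = 1) in ORS and Socs3 one of -1.21 (SE 0.295, limma unadjusted p = 0.00416, adjusted p = 0.430) in HFSC.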

How the data were processed

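RNA-seq levels were measured in 12 libraries. A PicoPure kit for RNA isolation and a SMARTer Ultra kit for cDNA were used, per the labels' protocols, with paired reads of 150 bp per the design text. The authors deposited log2 values, 1 per gene and library: log2 reads per 1e6 of the library total, with 0.9 read in place of none. Trim Galore, DESeq2 and the mm10 build are named, without roles, in the submitters' processing notes, and the aligner, counter, annotation and use of strand are not stated in the labels. Above the floor, at least 99.99% of values were whole reads within 0.2 read, so reads were recovered and divided by reads in genes with TMM scaling (trims of 30% and 5%, coded from its definition). Depth differs by compartment, and a gene with no read can be anywhere up to 3 reads per library, which covers counting error only.

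Differences were tested with limma 3.58.1 (R 4.3.3, statmod 1.5.0, trended robust prior, two-sided) on log2(CPM + 0.5), a scale that understates changes of low genes. Genes were kept with 10 reads (scaled to the median library) in 2 or more libraries and 15 in total. Adjusted p-values are Benjamini-Hochberg over all genes tested, with a threshold of 0.05. Compartments were compared in a fit of all 12 libraries as 6 groups, IFE and ORS knockouts and their difference in a fit of 8 libraries, and HFSC knockouts in a fit of 4. The members, the 83 other pathway genes and the marker lists were chosen with earlier results of these data known. Of these, 6 were matched under an older symbol. Every library's value is printed for the 10 members with the highest mean CPM, for members called in a comparison (or up to 6 at an unadjusted p under 0.05), and for the 3 largest fold changes of each; of other pathway genes, only those called, those with the 3 lowest p, and, added after their values were seen, Ifnar1 and the interferon genes are named, and some pathway genes are not reported here. Alternatives were median-of-ratios size factors, the deposited scale, a pseudocount of 2 CPM, no filter, a filter at 50 reads, limma-voom on recovered reads, other sets of libraries, a replicate block, control libraries only, and leaving out each library. Exon lengths come from GENCODE vM21 and promoters from RefSeq. Overlaps are between whole gene spans, introns included, at the positions given with the deposited values. The fits were tested on simulated data. For the IFE, ORS and HFSC knockouts, 7.46%, 11.9% and 35.8% of planted 2-fold changes were called, and 56.7%, 67.2% and 92.5% of 4-fold changes. For the difference of the IFE and ORS effects, 4.48% and 31.3% were called. Changes were planted only in genes above a minimum mean level, which many members did not reach.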

Additional observations from a re-analysis of the deposited data

Results flagged for a closer look

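A set of 7 values was flagged because every knockout library lay above every control library in one compartment and below in another, so that the effects pointed in opposite directions. The share of all genes that do so was not computed, so this count is not a result about the members. In single compartments, 13.8% to 19.7% of all genes were higher in every knockout library and 16.8% to 18.3% lower. Between IFE and ORS, the log2 knockout effect was higher in IFE by 3.804 for Usp18 (limma fit of all 12 libraries, adjusted p = 0.496) and by 5.37 for Gbp2 (limma adjusted p = 0.573). Between HFSC and IFE, that of Oasl2 was higher in HFSC by 4.03 (limma adjusted p = 0.415). Between HFSC and ORS, the effect was higher in HFSC by 1.86 for Isg15 (limma adjusted p = 1), 3.66 for Usp18 (0.807), 3.23 for Xaf1 (1) and 5.39 for Gbp2 (0.868). None of these differences passed. Egfr transcript was largely retained in HFSC L95 and L97, and in IFE and HFSC the genotypes also differ in sex.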

How the results depend on the processing

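With 2 libraries per group, the count of members called depended on the libraries used and on the scaling, although no member named in a comparison as called changed sign in any alternative. ORS against IFE called 4 members, 9 on the deposited scale, 2 with the replicate block and 1 with control libraries only (4 to 6 without each library in turn). HFSC against ORS called 8, 2 with control libraries only, and 4 to 8 without each library in turn. HFSC against IFE called 13, 8 on the deposited scale, 7 with no filter, 5 with control libraries only, and 4 to 13 without each library in turn. The knockout comparisons and the difference of effects called 0 members in every alternative. Over all genes, ORS against IFE called 2962 genes, 8003 on the deposited scale, 1514 with the replicate block, 1385 with control libraries only and 1899 without ORS control E344. HFSC against ORS called 4366, 7435 on the deposited scale and 2408 with control libraries only, and HFSC against IFE 5493 and 3336 with control libraries only. HFSC knockout against control called 5 genes, 2 on the deposited scale, 1 with no filter, 0 with limma-voom, 1 with all 12 libraries and 1 to 27 without each library. IFE knockout against control called 0 genes, 1 on the deposited scale, 3 with a filter at 50 reads, 5 with IFE libraries alone, 24 with all 12 libraries and 53 without IFE knockout E359, and ORS called 0, and 2 without ORS control E344. The difference of effects called 0 genes, 2 without ORS control E341 and 1 without IFE knockout E359. The median log2 fold change of members moved on the deposited scale from -0.42 to 0.35 in ORS against IFE and from 0.62 to 0.13 in HFSC against ORS. Fits with control libraries only rest on 2 libraries a side. For HFSC against IFE they set female HFSC libraries against male IFE libraries, so sex and compartment cannot be told apart there. The names E341, E358 and E359 occur in IFE and ORS, and libraries that share a name deviated from their group means with correlations of 0.0471, 0.0542 and 0.0542. With 2 libraries per group the values of E358 and E359 are equal by construction, and E341 had another partner in each compartment. The correlations thus cannot decide whether libraries with the same name are paired, and the block is given as an alternative only. Depth limits members near 3 reads per library.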
